A study of Mus musculus with 6 samples.

Results

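The genes described here encode the translation initiation factors (eIF1 to eIF6) and the translation elongation factors (eEF1 and eEF2) of the cytosol, together with the proteins that bind or modify them. They were chosen by symbol, as the protein-coding genes whose symbols begin with Eif1 to Eif6, Eef1 or Eef2, leaving out the eIF2 kinases. This gave 66 of the 19225 genes listed. RNA was measured in CD11b+ cells, which are mostly microglia, the resident macrophages of the brain. The cells were pulled out with magnetic beads from brains without the cerebellum, after perfusion and removal of myelin. The 3 libraries labelled Cnr1-/- (strain Cnr1 tm1Zim, genotype d/d) came from male mice with a constitutive disruption of the coding region of the cannabinoid receptor CB1 in all cells, and the 3 libraries labelled Cnr1+/+ (C57BL6/J, wt/wt) from male wild type mice. The paper states that the line is on a C57BL/6J background and that its experiments used littermates of both genotypes. All 6 mice were stress-naïve, received no agent and gave 1 library each, and the labels put their age at 3 months. The comparison asks whether microglia of mice without CB1 differ at rest from those of wild type mice.

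Translation begins when eIF2 brings the initiator tRNA to the small ribosomal subunit, helped by eIF1, eIF1A, eIF3 and eIF5. The eIF4F complex (the cap-binding protein eIF4E, the scaffold eIF4G and the helicase eIF4A) recruits the mRNA, and eIF5B joins the subunits at the start codon. During elongation eEF1A delivers the aminoacyl-tRNAs and eEF2 moves the ribosome along the mRNA. These factors are expressed in every cell, and protein synthesis is adjusted in large part by phosphorylation of eIF2, the eIF4E-binding proteins and eEF2, which mRNA levels do not show.

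Levels are given in cpm, reads scaled to library size, with the TMM factors of the authors. Libraries were made from the 3′ ends of transcripts, so a transcript gives about 1 read irrespective of its length and cpm were not divided by length. The libraries held the equivalent of 7708823 to 10723832 reads. The 10 microglia markers were listed above 0 and summed to 14349 to 16570 cpm. The 10 neutrophil markers summed to 4109 cpm and the 6 erythrocyte markers to 2333 cpm in the library labelled Cnr1-/- replicate 2, against 269 to 530 and 136 to 237 cpm in the other libraries. Neuron (7 genes), astrocyte (5) and oligodendrocyte (5) markers summed to 50.2 to 57.9, 168 to 358 and 396 to 833 cpm. No marker of these lists was at 0 in every library. Cnr1 itself had 0 cpm in each library labelled Cnr1+/+ and 1.41, 1.21 and 1.79 cpm in those labelled Cnr1-/-, from 13, 13 and 15 reads. This goes against what the labels would give for an absent transcript, whether the counted 3′ end lies outside the disrupted part was not tested, and directions are given by the labels throughout.

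The 6 promoters printed here are those of the most abundant elongation factor genes (Eef1a1 and Eef2) and of the 4 tested genes whose levels did not overlap between the groups, each from 70 bases before to 30 bases from the annotated start (RefSeq, GRCm38.p6, 5′ to 3′ in the direction of the gene). Capitals mark CCGGAAG, a core that ETS transcription factors bind, TATAAA, a form of the TATA box, and CTCTTCC, a run of pyrimidines. Each was searched on both strands, and none overlaps another in these windows. Only these exact letters were searched, so that the tatataa at the end of the Eef1a1 stretch is not marked.
Eef1a1 (chr9:78481695-78481794, minus strand): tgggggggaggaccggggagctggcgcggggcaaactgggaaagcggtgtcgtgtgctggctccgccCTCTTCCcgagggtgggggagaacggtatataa
Eef2 (chr10:81176561-81176660, plus strand): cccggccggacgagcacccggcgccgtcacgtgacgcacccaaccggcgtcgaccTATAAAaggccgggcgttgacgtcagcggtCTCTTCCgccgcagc
Eef2k (chr7:120842761-120842860, plus strand): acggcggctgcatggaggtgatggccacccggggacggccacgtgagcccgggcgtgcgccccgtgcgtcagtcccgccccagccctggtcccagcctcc
Eif3d (chr15:77970795-77970894, minus strand): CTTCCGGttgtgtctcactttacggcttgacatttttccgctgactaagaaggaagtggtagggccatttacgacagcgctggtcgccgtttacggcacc
Eif4e2 (chr1:87213841-87213940, plus strand): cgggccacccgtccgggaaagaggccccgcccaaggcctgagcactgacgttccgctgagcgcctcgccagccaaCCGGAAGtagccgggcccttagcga
Eif2b4 (chr5:31193110-31193209, minus strand): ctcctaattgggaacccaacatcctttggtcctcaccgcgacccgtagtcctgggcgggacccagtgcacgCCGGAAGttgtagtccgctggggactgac
CCGGAAG was found in 3 of these stretches, those of Eif3d, Eif4e2 and Eif2b4. Over full windows of 300 bases, 14 of the 50 members with a RefSeq window held it (28%), against 9.12% of 27025 windows of all genes. These windows outnumber the 19225 genes listed in the data, and the share among genes expressed here was not computed. TATAAA was held by 10% of the member windows and 14.2% of all windows, and CTCTTCC by 10% and 11.2%. The matches describe letters in these windows; binding was not measured.

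The translation factor genes were expressed at levels from under 1 cpm to a mean of 569 cpm. Eef1a1, which encodes the main form of eEF1A, was the most abundant (569 ± 62.8 cpm in the Cnr1+/+ group and 569 ± 33.8 cpm in the Cnr1-/- group; SD, n = 3 each). Eef2 followed with a mean of 291 cpm over all libraries, then Eif3a, the largest subunit of eIF3, with 237 cpm, Eif5b with 226 cpm and Eif1, which guards start codon choice, with 206 cpm. These 5 genes gave 39.3% of the reads of all 66. Of the 66, 49 reached the mean of 10 cpm that was required for testing, and 12 exceeded 100 cpm. The median level of the 49 was 41.7 cpm, against 26.04 cpm for the 6659 genes tested. Their within-group SD had a median of 0.17 on the log2 scale, against 0.22 for all genes tested, and ranged from 0.058 (Eef2) to 0.57 (Eif1a). The 66 genes summed to 3644, 3706 and 4102 cpm in the Cnr1+/+ libraries and to 3734, 4223 and 3911 cpm in the Cnr1-/- libraries, so that the groups overlapped. Where values of the groups are set side by side, Cnr1+/+ replicates 1 to 3 come before "against" and Cnr1-/- replicates 1 to 3 after it.

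**Figure D1:**
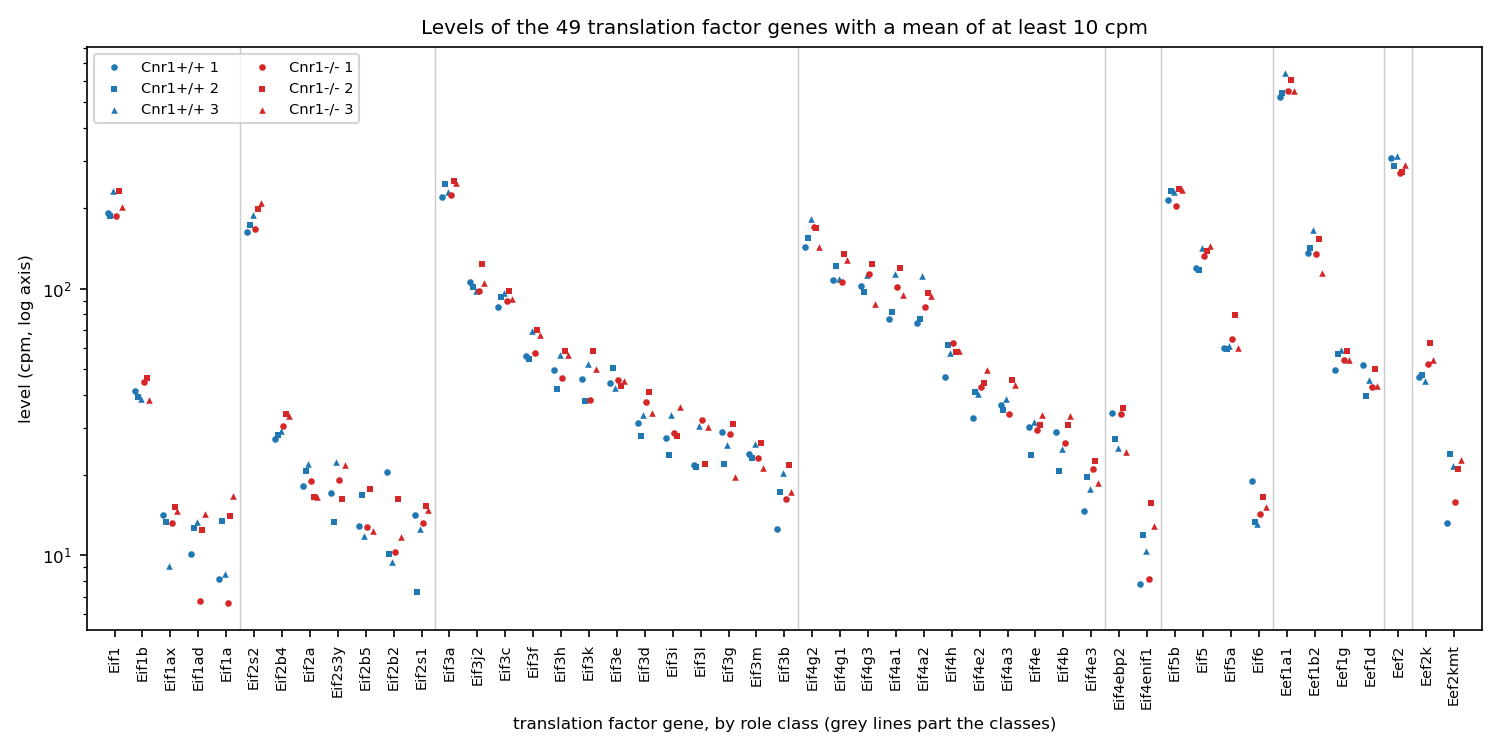
Level of each of the 49 tested genes in each of the 6 libraries (cpm, log axis), by role class (from left: eIF1 and eIF1A, eIF2 and eIF2B, eIF3, eIF4F and helpers, eIF4E-binding, eIF5 to eIF6, eEF1, eEF2, modifying enzymes). Blue symbols are Cnr1+/+ and red symbols Cnr1-/- libraries. In the classes of eIF1 and eIF1A, eIF2 and eIF2B, and eEF1, 1 gene lies far above the rest. For all but 4 of the 49 genes the red and blue symbols overlap.

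None of the 49 tested translation factor genes passed the test between the groups (limma, nominal p under 0.05 or adjusted p under 0.1). Over all genes tested, 6.02% had a nominal p under 0.05, 5.09% higher and 0.931% lower in the Cnr1-/- libraries, and 7 genes had an adjusted p under 0.1. A limma voom fit also called 0 of the 49. The smallest nominal p among them was 0.0798 (Eef2k, adjusted p = 0.839 by limma with Benjamini-Hochberg adjustment). By sign, 40 of the 49 were higher and 9 lower in the Cnr1-/- libraries (81.6% higher, against 68.4% of all genes tested). The median log2 fold change was 0.11, against 0.08 for all genes tested. The sign count followed the scaling of the libraries, at 29 higher and 20 lower after centring each library on its median or after quantile normalisation, and 26 higher and 23 lower when totals were equalised over the nuclear genes. In these 3 scalings 59.2%, 59.2% and 53.1% of the 49 were higher, against 52.0%, 49.7% and 46.3% of all genes tested. Log2 fold changes ranged from −0.22 (Eif2a) to 0.40 (Eif2s1, named after its values were seen, and at 0.11 without Cnr1+/+ replicate 2). For 35 of the 49 genes the 95% interval lay within a 1.5-fold change in either direction and for all 49 within a 2-fold change, with outer bounds of 0.586-fold and 1.94-fold.

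**Figure D2:**
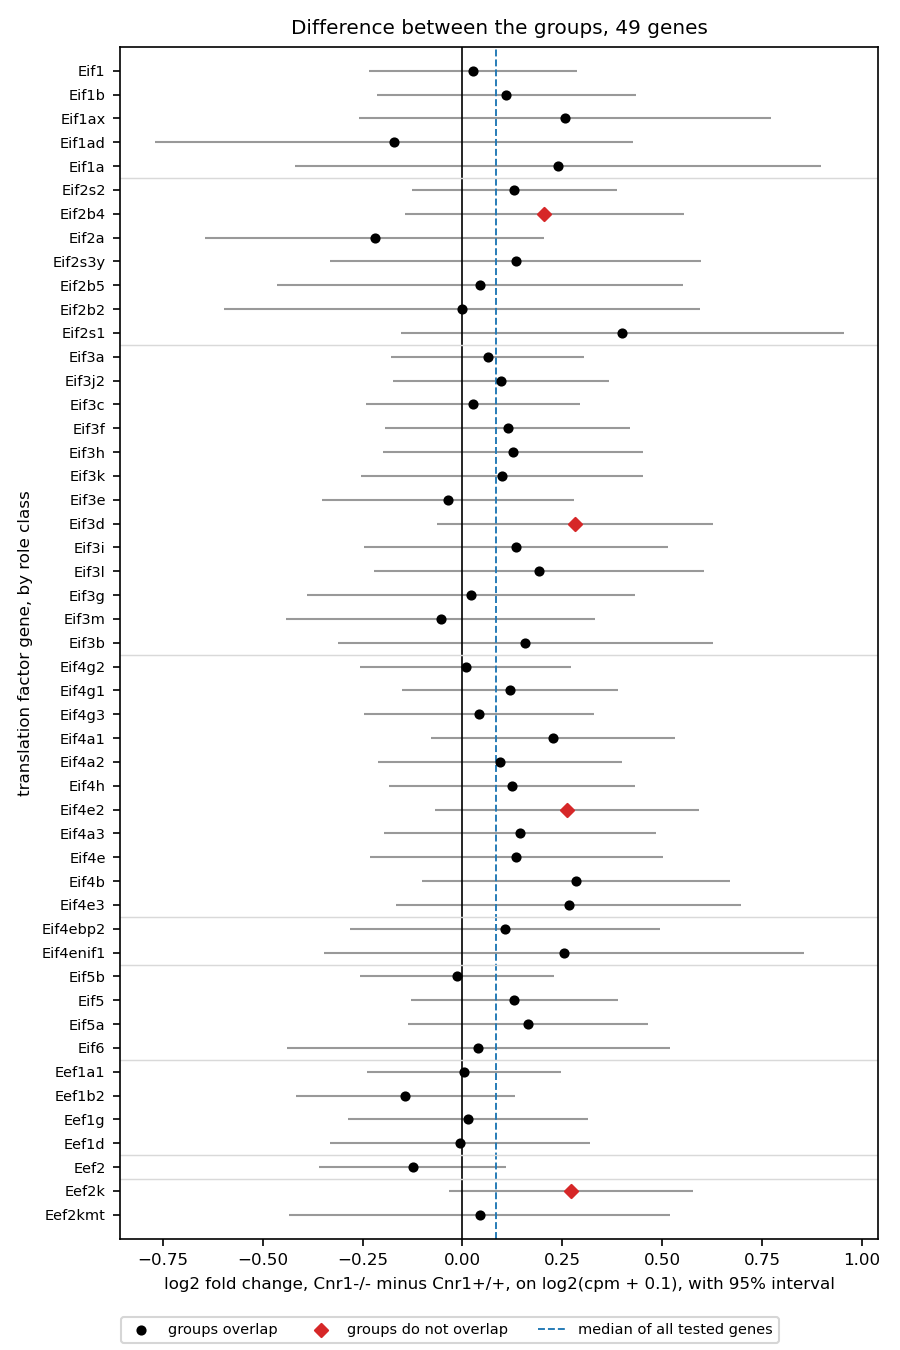
Log2 fold change (Cnr1-/- minus Cnr1+/+, on log2(cpm + 0.1)) of the 49 tested genes with its 95% interval from limma, by role class. Every interval crosses 0, the points lie between −0.22 and 0.40, and the 4 diamonds mark the genes whose groups did not overlap.

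The levels were most often highest in 1 library. Of the 49 genes, 25 had their highest value in Cnr1-/- replicate 2, and 2 and 8 in Cnr1-/- replicates 1 and 3. The median deviation from the gene mean in replicate 2 was 0.16 on the log2 scale for the translation factors and 0.13 for all genes tested. This is the library with the high neutrophil and erythrocyte marker sums, whose part in the result was not tested. Without it, 29 of the 49 genes were higher and 20 lower (59.2% higher, against 57.9% of all genes tested), and the median log2 fold change was 0.05, against 0.04 for all genes tested. In bulk samples such as these, fewer cells of a type and less RNA per cell cannot be told apart.

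**Figure D3:**
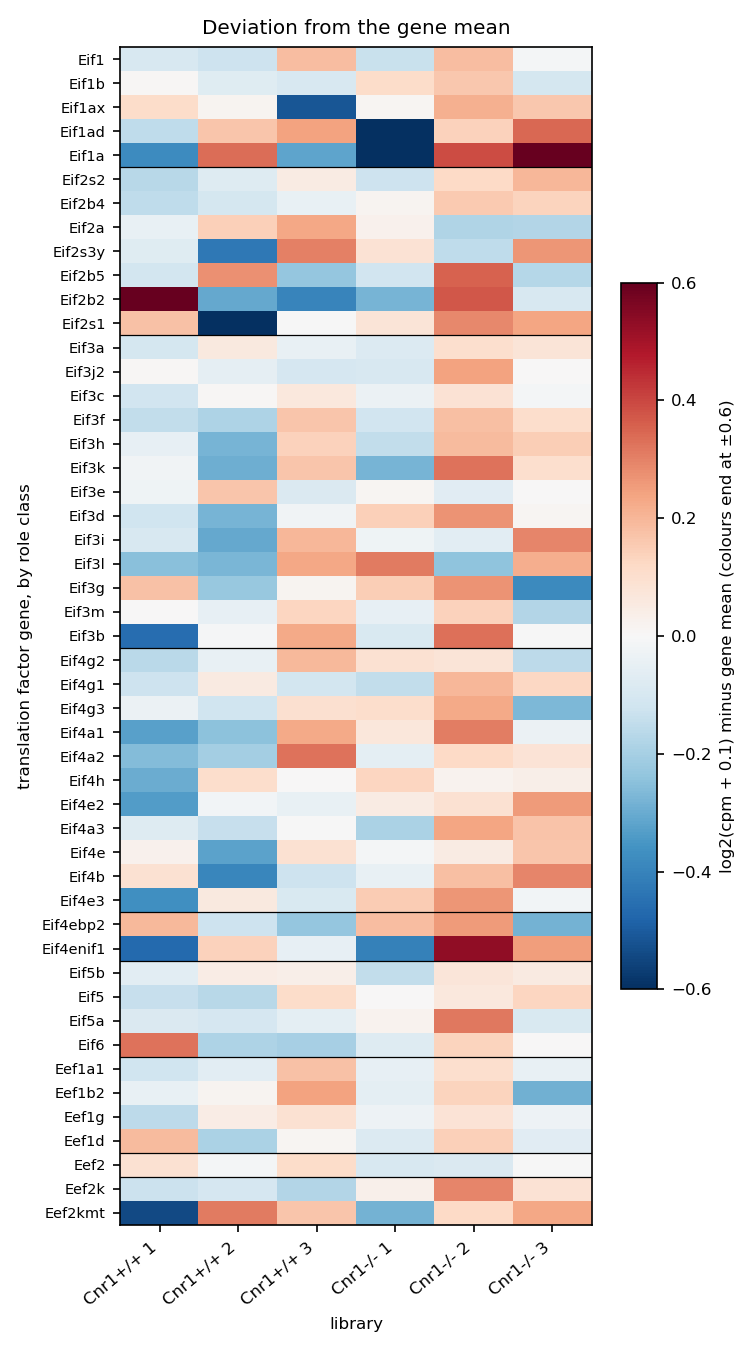
Deviation of each tested gene from its own mean in each library, log2(cpm + 0.1), red above and blue below, with colours ending at ±0.6. The column of Cnr1-/- replicate 2 holds the highest value of 25 of the 49 genes, and the columns of Cnr1+/+ replicates 1 and 2 the lowest value of 15 and 13.

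The genes with eEF1 and eEF2 symbols stood lower relative to the initiation factors in all 3 Cnr1-/- libraries. These 7 genes, elongation factors but for Eef1e1 (a subunit of the tRNA synthetase complex), summed to 1080, 1081 and 1233 cpm in the Cnr1+/+ libraries and to 1061, 1156 and 1062 cpm in the Cnr1-/- libraries. The 48 genes for eIF1 to eIF6 and their helpers, leaving out the eIF4E-binding class, summed to 2434, 2493 and 2735 cpm and to 2538, 2902 and 2703 cpm. Each sum overlapped between the groups. Within a library, however, the elongation sum per 100 cpm of the initiation sum was 44.4, 43.4 and 45.1 in the Cnr1+/+ libraries and 41.8, 39.8 and 39.3 in the Cnr1-/- libraries. These values did not overlap, and the ratio fell by 9.0% between the group means on the log scale. In group means (Cnr1+/+ against Cnr1-/-) the eEF1 sum was 828 against 815 cpm and Eef2 303 against 278 cpm. Each initiation class was higher in Cnr1-/-, as eIF3 with 784 against 830 cpm and eIF4F and helpers with 757 against 817 cpm. All genes tested had a median log2 fold change of 0.08. How often other sets of genes separate in this way was not computed. A ratio within a library does not depend on the factor by which the library was scaled. The comparison was chosen after the values were seen and is given without a test.

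Leaving out Eef1a1 or Eef2 kept the ratio lower, although these versions reuse the values by which the ratio was chosen. Without Eef1a1 the ratio was 0.229, 0.216 and 0.217 against 0.202, 0.189 and 0.190, and without Eef2 it was 0.317, 0.318 and 0.336 against 0.311, 0.304 and 0.286. Without Eef1e1 it was 0.442, 0.433 and 0.449 against 0.416, 0.397 and 0.391. With the genes kept that share no stretch of their 3′ end with another gene, it was 0.252, 0.233 and 0.233 against 0.214, 0.197 and 0.221. Of the elongation sum this kept Eef2 (mean 291 cpm), Eef1g (55.2 cpm), Eef1a2 (6.83 cpm) and Eef1e1 (4.11 cpm), so that it rested mostly on Eef2. Of the 6 values of Eef1g, 0 were whole reads. In each version the Cnr1-/- libraries lay below the Cnr1+/+ libraries. With any 1 library left out, the difference in log2 ratio stayed between −0.16 and −0.12.

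**Figure D4:**
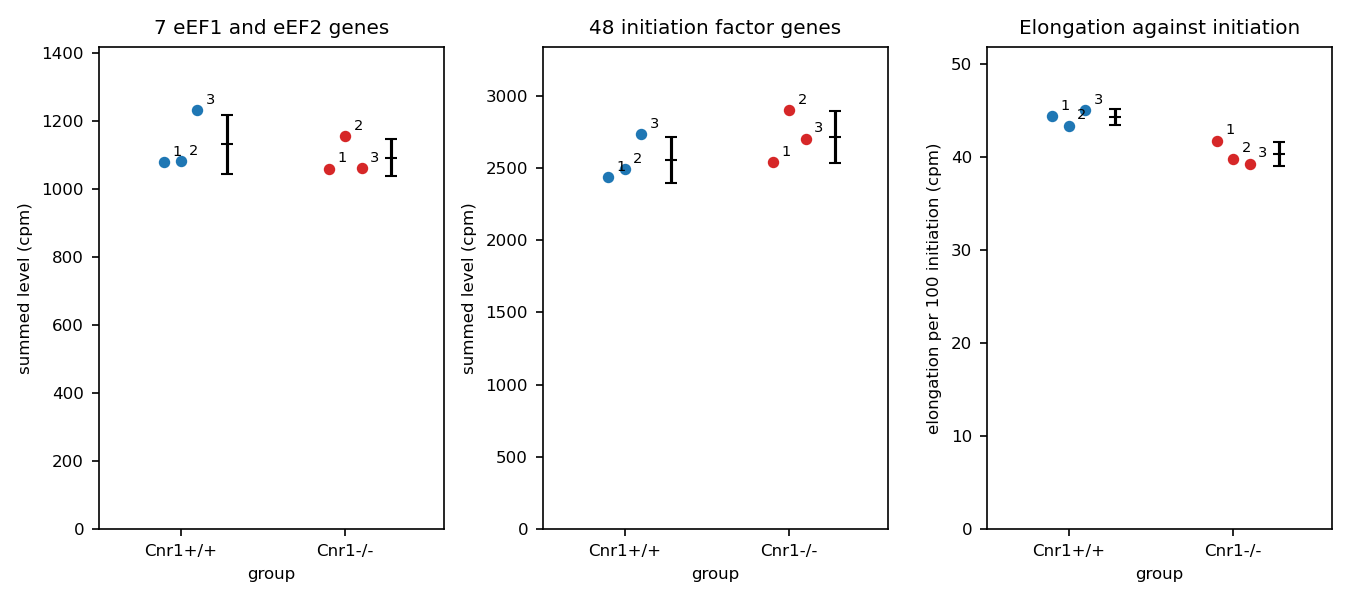
Summed level of the 7 genes with eEF1 and eEF2 symbols, summed level of the 48 initiation factor genes, and elongation per 100 cpm of initiation, by group. Points are libraries, numbered by replicate, and the bars to their right give the mean and SD (n = 3); the sums overlap, and the ratios lie at 43.4 to 45.1 in Cnr1+/+ and 39.3 to 41.8 in Cnr1-/-.

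Among the elongation factors, Eef2, the translocase (chromosome 10, 81176631 to 81182498, mm10), had 309, 288 and 313 cpm in the Cnr1+/+ libraries and 271, 273 and 290 cpm in the Cnr1-/- libraries. The groups overlapped by a single value, with 303 ± 13.3 against 278 ± 10.1 cpm. The log2 fold change was −0.12 (SE 0.11, limma adjusted p = 0.910, exact permutation p = 0.2). After centring it was −0.20, after quantile normalisation −0.25 and after equalising the nuclear totals −0.22, with limma nominal p values of 0.0491, 0.0147 and 0.0313. The smallest adjusted p of any member in these 3 limma fits was 0.884.
Eef1b2, a subunit of the nucleotide exchange factor that reloads eEF1A with GTP, had 136, 142 and 166 cpm against 135, 154 and 115 cpm, with overlapping groups. Its log2 fold change of −0.14 (limma adjusted p = 0.910, exact permutation p = 0.4) became −0.22 after centring, and −0.24 under quantile normalisation and with equal nuclear totals, with limma nominal p values of 0.0588, 0.0421 and 0.0490. The log2 fold change of Eef1b2 was −0.03 without Cnr1-/- replicate 3 and −0.06 without Cnr1+/+ replicate 3. The other subunits of that exchange factor, Eef1g (55.0 ± 4.89 against 55.4 ± 2.54 cpm) and Eef1d (45.6 ± 5.95 against 45.3 ± 4.06 cpm), and Eef1a1 had log2 fold changes between −0.01 and 0.01, turning below 0 under each of the 3 scalings for Eef1g and Eef1a1. With Eef2, all 5 tested elongation genes then had log2 fold changes below 0, as they did without Cnr1-/- replicate 2 (Eef1g at −0.02). Of all genes tested, 52.0%, 49.7% and 46.3% were higher by sign under those scalings, and 57.9% without Cnr1-/- replicate 2. Of the 6 values, 1 was a whole number of reads for Eef1a1 and 0 for each of Eef1b2, Eef1d and Eef1g. Eef1a2, the form of eEF1A found in neurons and muscle, had 4.17 to 9.88 cpm and was not tested. Eef1e1 was the least abundant at a mean of 4.11 cpm.

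Eef2k encodes the kinase that phosphorylates eEF2 and thereby slows elongation. It lies on chromosome 7 (120842831 to 120907450, mm10) and had 46.6, 47.5 and 45.01 cpm in the Cnr1+/+ libraries against 52.0, 62.5 and 54.0 cpm in the Cnr1-/- libraries. The groups did not overlap. The log2 fold change was 0.27 (SE 0.15, 95% interval −0.03 to 0.58), and the exact two-sided permutation p over the 6 libraries was 0.1, the smallest that 3 against 3 allow. Without Cnr1-/- replicate 2 it was 0.19. After centring it was 0.20, after quantile normalisation 0.18 and with equal nuclear totals 0.17, with limma nominal p values of 0.135, 0.171 and 0.192. Of the 7 modifying enzymes, Eef2kmt, a methyltransferase that acts on eEF2, was the only other one tested (19.6 ± 5.64 against 19.8 ± 3.57 cpm). The 5 methyltransferases of eEF1A (Eef1akmt1 to Eef1akmt4 and Eef1aknmt) had means of 0.505 to 4.47 cpm. Without a filter on low values Eef1akmt4 had a limma nominal p of 0.0337, from 4.80, 0.898 and 4.10 cpm against 5.85, 5.22 and 5.96 cpm.

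The other 3 tested genes without overlap between the groups were initiation genes, and these 4 tested genes were higher in the Cnr1-/- libraries. Among the 17 genes too scarce to test, Eef1akmt4 (higher) and Eif4a3l1 (lower, with at most 5 reads in a library) did not overlap either. The 4 make 8.16% of the 49, against 8.85% of all genes tested that did not overlap and were higher and 2.13% that did not overlap and were lower. Eif3d, a cap-binding subunit of eIF3 named after its values were seen, had 31.3, 27.9 and 33.4 cpm against 37.5, 40.9 and 34.2 cpm. This gave a log2 difference of 0.28 (limma adjusted p = 0.854, exact permutation p = 0.1). Eif4e2, which binds the cap and is known to repress translation of its targets, had 32.8, 40.9 and 40.2 cpm against 42.8, 44.1 and 49.4 cpm (log2 fold change 0.26, limma adjusted p = 0.857, exact permutation p = 0.1). Eif2b4, the delta subunit of the factor eIF2B that exchanges the nucleotide on eIF2, had 27.2, 28.1 and 29.3 cpm against 30.6, 33.8 and 33.3 cpm (log2 fold change 0.21, limma adjusted p = 0.900, exact permutation p = 0.1). The log2 fold changes of these 3 genes were smaller under the 3 other scalings, at 0.18 to 0.21 for Eif3d, 0.16 to 0.19 for Eif4e2 and 0.11 to 0.13 for Eif2b4, and that of Eif4e2 was 0.16 without Cnr1+/+ replicate 1. The nearest values of the groups lay close together, as for Eif3d with 33.4 cpm in a Cnr1+/+ and 34.2 cpm in a Cnr1-/- library.

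Among the eIF1 and eIF1A genes, all 5 were tested, and 4 were higher by sign (3 under each of the other scalings). Of all genes tested 68.4% were higher, and 52.0%, 49.7% and 46.3% under the other scalings. Eif1 had 192, 188 and 233 cpm against 187, 233 and 203 cpm, and its paralogue Eif1b 41.4, 39.2 and 38.5 cpm against 44.5, 46.1 and 38.3 cpm. Eif1 exceeded Eif1b 4.20- to 6.05-fold in every library. Eif1a and Eif1ax, which encode nearly the same protein, lay close together, with 6.60 to 16.7 and 9.15 to 15.2 cpm, and Eif1ax was higher in 4 libraries and Eif1a in 2.

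Of the 11 eIF2 and eIF2B genes, 7 were tested, and 5 of these were higher by sign (4 under each of the other scalings). Of all genes tested 68.4% were higher, and 52.0%, 49.7% and 46.3% under the other scalings. The subunits of eIF2 differed widely in mRNA level. Eif2s2, the beta subunit, had 163, 173 and 189 cpm against 168, 199 and 210 cpm (log2 fold change 0.13, limma adjusted p = 0.910, exact permutation p = 0.3). The log2 fold change of Eif2s2 was 0.03 to 0.05 under the 3 other scalings. Leaving out Cnr1-/- replicate 3 gave 0.06, Cnr1+/+ replicate 1 gave 0.08 and Cnr1-/- replicate 1 gave 0.23. Eif2s1, the alpha subunit that carries the regulatory phosphorylation site, had 14.1, 7.28 and 12.5 cpm against 13.2, 15.3 and 14.8 cpm, so that beta exceeded alpha 11.5- to 23.8-fold. The gamma subunit is encoded on both sex chromosomes. Eif2s3y had 13.4 to 22.3 cpm and Eif2s3x, not tested, 5.37 to 9.91 cpm, and the Y copy was higher in all 6 libraries, 1.35- to 4.04-fold. Both together gave 23.1 to 30.4 cpm. Of the words of 50 bases in the 3′ ends of Eif2s3x, 39.7% also occur in another gene, and of those of Eif2s2, 26.1%, so that their levels depend on how such reads were divided. Eif2a, which despite its symbol is a separate factor from eIF2 alpha, had 18.2, 20.7 and 21.98 cpm against 19.1, 16.5 and 16.6 cpm.

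Of the 14 eIF3 genes, 13 were tested, and 11 of these were higher and 2 lower by sign, with a median log2 fold change of 0.10. After centring or quantile normalisation 8 were higher and 5 lower, and with equal nuclear totals 6 and 7, with medians of 0.023, 0.0039 and −0.0012. Of all genes tested 68.4% were higher with a median of 0.08. Under those scalings 52.0%, 49.7% and 46.3% were higher, with medians of 0.0084, −0.0014 and −0.015. eIF3 is the largest initiation factor and holds the small subunit ready for the mRNA. Its subunits spanned a 13.5-fold range of levels, from 17.6 cpm (Eif3b) to 237 cpm (Eif3a) among those tested. Eif3a had 220, 247 and 229 cpm against 224, 254 and 250 cpm, and Eif3c 85.2, 92.7 and 96.3 cpm against 89.9, 97.7 and 91.3 cpm, with overlapping groups. Neighbours in the order of levels below Eif3f mostly overlapped over the libraries. Eif3j2 was listed at 98.0 to 124 cpm and its paralogue Eif3j1 at 5.59 to 10.5 cpm. In the 3′ ends of Eif3j2, 85.8% of the words of 50 bases also occur in Eif3j1, and 1 of its 6 values was a whole number of reads, so that the division between this pair is uncertain. Their sum was 104 to 133 cpm.

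The 13 genes of eIF4F and its helpers had 11 tested members, and all 11 were higher by sign, against 68.4% of all genes tested. Their median log2 fold change was 0.13, against 0.08 for all genes tested. It was 0.06 after centring or quantile normalisation and 0.04 with equal nuclear totals. All genes tested then had medians of 0.0084, −0.0014 and −0.015. Eif4g2 and Eif4g3 turned below 0 under each of the 3 other scalings, and Eif4a2 did so with equal nuclear totals. Of the scaffolds, Eif4g2, which lacks the eIF4E-binding part, was the most abundant, with 143, 155 and 183 cpm against 170, 169 and 144 cpm. Eif4g1 had 108, 122 and 109 cpm against 106, 135 and 128 cpm, and Eif4g3 102, 96.8 and 112 cpm against 113, 123 and 87.2 cpm. Eif4g1 lay below Eif4g2 in all 6 libraries and above Eif4g3 in 4. The helicases Eif4a1 and Eif4a2 were nearly equal, with 97.7 and 89.7 cpm on average, and Eif4a1 was the higher in every library, by 1.00- to 1.24-fold. Eif4a1 had 77.1, 81.4 and 113 cpm against 101, 119 and 94.2 cpm (log2 fold change 0.23, limma adjusted p = 0.885, exact permutation p = 0.3). Without Cnr1+/+ replicate 3 its limma nominal p was 0.0108 and its adjusted p 0.432, at a log2 fold change of 0.40. That fold change was 0.13 to 0.15 under the 3 other scalings, 0.12 without Cnr1+/+ replicate 1 and 0.13 without Cnr1-/- replicate 2. Eif4a3, the helicase of the exon junction complex, had 33.8 to 45.5 cpm, and its retrocopies Eif4a3l1 and Eif4a3l2, whose 3′ ends share 56.2% and 61.5% of their words with other genes, had at most 0.598 and 2.31 cpm.

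Of the cap-binding proteins, Eif4e2 (mean 41.7 cpm) exceeded Eif4e (29.9 cpm) in all 6 libraries, and Eif4e exceeded Eif4e3 (19.0 cpm) in all 6. Eif4e had 30.4, 23.8 and 31.7 cpm against 29.5, 30.8 and 33.5 cpm. Of the 4 eIF4E-binding genes, Eif4ebp2 was the main form with 34.1, 27.3 and 25.3 cpm against 33.9, 35.6 and 24.4 cpm, 3.08- to 8.48-fold above Eif4ebp1. Eif4ebp1 had 4.02, 8.88 and 8.20 cpm against 5.30, 4.29 and 3.46 cpm and was below the minimum for testing. Eif4ebp3 had 2.99 to 10.96 cpm, and all words in its 3′ end occur in another annotated gene. Eif4enif1, which carries eIF4E to the nucleus, had 7.78, 11.9 and 10.4 cpm against 8.12, 15.7 and 12.9 cpm.

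Of the 5 genes of the late steps, Eif5b had 216, 232 and 231 cpm against 203, 237 and 234 cpm, Eif5, which makes eIF2 hydrolyse its GTP, 120, 117 and 142 cpm against 132, 138 and 144 cpm, and Eif5a, the hypusine-bearing factor, 60.1, 59.5 and 61.1 cpm against 64.7, 79.4 and 59.7 cpm. All 3 overlapped between the groups. Eif5a exceeded Eif5a2 (0.399 to 2.42 cpm) at least 25.3-fold in every library. Eif6, which keeps the large subunit from joining too early, had 13.1 to 18.9 cpm.

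Over 14 pairs of paralogues the exact two-sided permutation p for the ratio ranged from 0.4 to 0.9, and each adjusted p was 0.9. With 3 against 3 libraries this exact test cannot go below 0.1, so it does not show that the ratios were alike. The order within a pair was the same in all 6 libraries for 12 of the 14 pairs, the others being Eif1a with Eif1ax and Eif4g1 with Eif4g3. The widest shift was that of Eif4ebp2 over Eif4ebp1, with a log2 ratio of 2.09 ± 0.83 in Cnr1+/+ and 2.82 ± 0.19 in Cnr1-/- libraries (exact permutation p = 0.4, n = 3 each).

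**Figure D5:**
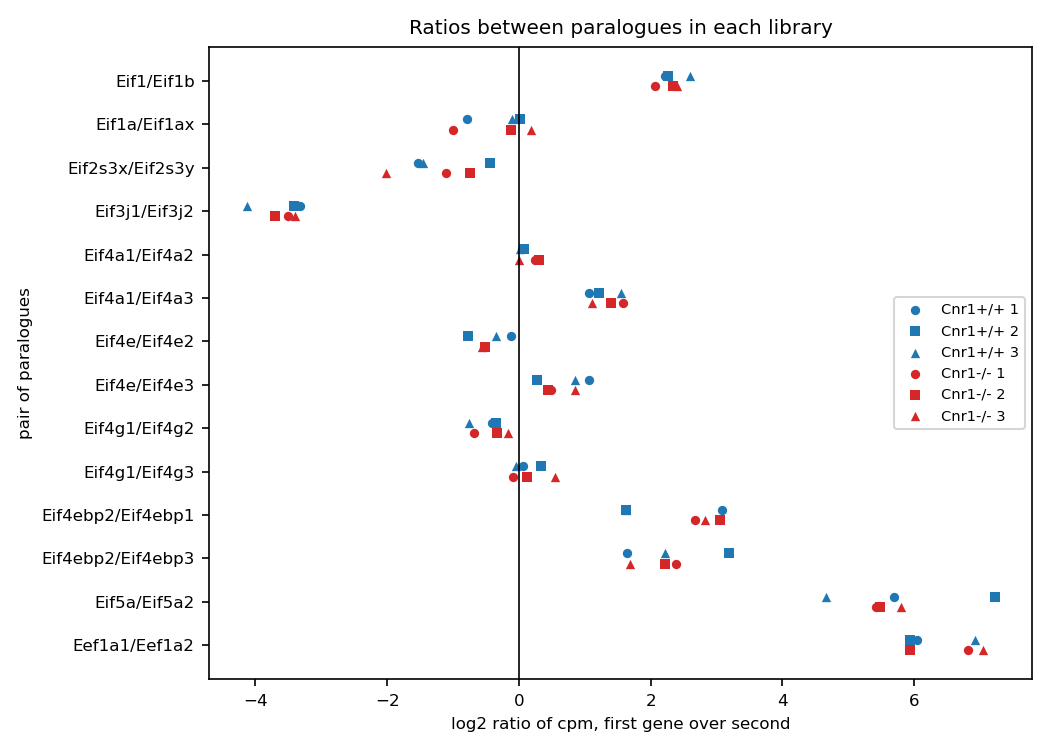
Log2 ratio of the cpm of 14 pairs of paralogues, first gene over second, in each library (blue Cnr1+/+, red Cnr1-/-). The groups overlap in each pair, and the pairs range from Eif3j1 far below Eif3j2 to Eef1a1 61.2- to 132-fold above Eef1a2.

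Partners of these factors were described from a list of 36 genes (eIF2 kinases and phosphatase subunits, poly(A)-binding, termination and recycling proteins, and the kinases, inhibitors and hypusine enzymes that act on the factors). Of these 30 were tested, 19 (63.3%) were higher by sign, against 68.4% of all genes tested, 11 were lower, and the median log2 fold change was 0.06. One (3.33%, against 6.02% of all genes) passed the test, Eif2ak1, the haem-regulated kinase of eIF2 alpha. It had 13.5, 16.3 and 18.9 cpm against 21.3, 26.3 and 24.0 cpm, without overlap, and a log2 fold change of 0.56 (SE 0.21, limma nominal p = 0.0121, adjusted p = 0.705, exact permutation p = 0.1). The log2 fold change was 0.44 (nominal p 0.0508) without Cnr1+/+ replicate 1 and 0.49 (nominal p 0.0569) without Cnr1-/- replicate 2, the library with 2333 cpm of erythrocyte markers, whose part in the result was not tested. Eif2ak4, the kinase that senses uncharged tRNA, had 18.7, 20.6 and 28.9 cpm against 26.4, 30.3 and 31.5 cpm (limma adjusted p = 0.826, exact permutation p = 0.2) and was named after its values were seen. Atf4, whose mRNA is translated when eIF2 is phosphorylated, had 111, 101 and 115 cpm against 102, 106 and 106 cpm. The 3 most abundant partners were Pabpc1, the poly(A)-binding protein (318 ± 14.8 against 342 ± 46.7 cpm), the helicase Ddx3x (168 ± 9.79 against 191 ± 11.1 cpm) and the ribosomal scaffold Rack1 (157 ± 20.1 against 148 ± 12.1 cpm), and none of them passed the test. Dohh, which completes hypusine on eIF5A, had 14.4, 13.8 and 16.2 cpm against 10.7, 11.3 and 11.3 cpm (limma adjusted p = 0.851, exact permutation p = 0.1), a gene also named after its values were seen.

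Some of these genes share 3′ sequence with other genes. In 43 of the 66 genes no word of 50 bases in the last 400 bases of the annotated transcripts occurred in another gene, and in 13 more than 20% of the words did, with Eef1a1 at 70.6% through its many copies in the genome and Eif1 at 27.4%. Among the 49 tested genes, 28 had whole numbers of reads in all 6 libraries (within 0.1 read). A tested gene had between 60 and 6518 reads in a library. The 3 members on chromosome 4, which carries Cnr1, lie at least 83.1 Mb from it.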

How the data were processed

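The authors prepared QuantSeq 3′ FWD libraries, aligned the trimmed reads to mm10 with STAR in Partek Flow, divided shared reads by expectation-maximisation and normalised with TMM. The deposited values are in cpm. Totals of reads were recovered from the value of 1 read, and no count test was used because in each library just 85.7% to 86.7% of non-zero values came out as whole reads (within 0.1). The 6 value columns are headed by numbers and were mapped to samples by the same number in the sample descriptions. The members and lists were chosen with earlier results of these data known.

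Groups were compared on log2(cpm + 0.1), requiring a mean of 10 cpm or more (6659 of 19225 genes), using limma 3.58.1 in R 4.3.3 with a mean-variance trend. Genotype was the sole term, and p-values were adjusted over all genes tested (Benjamini-Hochberg). For single genes an exact permutation test (two-sided) over the libraries was added. Fold changes of scarce genes are understated on this scale. Genes were named if they were among the 3 most abundant of a role class, belonged to a paralogue set, had a nominal p under 0.05 (members and partners), did not overlap with a fold over 1.25, or were among the 3 most abundant partners. Other members named were Eif2b5, Eif2s1, Eif3b, Eif3d, Eif3e, Eif3f, Eif3g, Eif3k, Eif4a3l2, Eif6, Eef1d, Eef1e1 and the scarcer eEF1A methyltransferases. These and the partners Eif2ak4, Dohh and Atf4 were picked with their values in view. The mitochondrial factor and ribosomal protein lists and the ratio of elongation to initiation factors were added after seeing the data. Words of 50 bases in the last 400 bases of transcripts were compared over GENCODE vM21, in which all 66 genes were found by coordinates (3 under another symbol). On simulated data for this comparison (6659 genes), 87% of genes changed 1.5-fold and 99% of those changed 2-fold had a nominal p under 0.05. Alternatives were 3 other scalings (centring on the median, quantile normalisation, equal totals over nuclear genes), pseudocounts of 1 and 0.0001, testing every gene, requiring 20 cpm, eBayes without trend, limma voom, blocking on the replicate number and leaving out single libraries. Python 3.11.15 and matplotlib 3.10.9 were used.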

Additional observations from a re-analysis of the deposited data

How the results depend on the processing

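With 10 other settings on all libraries and with each of the 6 libraries left out, no member had an adjusted p under 0.1 by limma. The count of members with a nominal p under 0.05 changed from 0 to 1 lower after centring (Eef2), 2 lower after quantile normalisation and 2 lower with equal nuclear totals (Eef1b2 and Eef2), and 1 higher without a filter (Eef1akmt4, itself below the minimum mean). Of all genes 5.63%, 5.41% and 5.29% were called under those 3 scalings, and 2.67%, 2.96% and 3.15% were called lower, against 2.04%, 4.08% and 4.08% of the 49 members. Leaving out libraries gave 0 to 1 members called higher (Eif4a1, without Cnr1+/+ replicate 3) and 251 to 600 of all genes, the lowest without Cnr1-/- replicate 2 and the highest without Cnr1+/+ replicate 3; all genes called were 993 without a filter and 263 at a minimum mean of 20. The median log2 fold change of the members was 0.010 with equal nuclear totals. Partners called were 2 after centring, quantile normalisation and equal nuclear totals (Eif2ak1 and, lower, Dohh), 3 without trend, and 0 to 4 with single libraries left out; the Eif2ak1 call was lost without Cnr1+/+ replicate 1 and without Cnr1-/- replicate 2 (log2 fold changes 0.44 and 0.49, against 0.56). Replicate numbers did not pair the libraries (correlations of deviations −0.0557, −0.0316 and −0.0308); with the replicate number as a block, 0 members, 2 partners (Eif2ak1 and Eif2ak4) and 421 genes in all were called, and no member's call changed.

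Small log2 fold changes that the test did not call changed sign with the scaling, in 11 of the 49 members after centring and after quantile normalisation (Eif2b5, Eif3g and Eif6 besides those listed next) and in 14 with equal nuclear totals (also Eif3k and Eif4a2). Among the 26 named genes recomputed in full, the values after centring were Eif1 −0.050, Eif3a −0.012, Eif3c −0.050, Eif4g2 −0.067, Eif4g3 −0.034, Eef1a1 −0.072, Eef1g −0.061 and Eef2kmt −0.032; after quantile normalisation Eif1 −0.079, Eif3a −0.021, Eif3c −0.065, Eif4g2 −0.063, Eif4g3 −0.041, Eef1a1 −0.10, Eef1g −0.073 and Eef2kmt −0.028; with equal nuclear totals Eif1 −0.073, Eif3a −0.036, Eif3j2 −0.0025, Eif3c −0.074, Eif4g2 −0.091, Eif4g3 −0.058, Eef1a1 −0.096, Eef1g −0.085 and Eef2kmt −0.055. Of the same 26 genes, those that changed sign with single libraries left out ranged as Eef1a1 −0.054 to 0.092, Eef1g −0.060 to 0.063, Eef2kmt −0.22 to 0.21, Eif1 −0.060 to 0.12, Eif3c −0.024 to 0.064, Eif4g2 −0.071 to 0.11, Eif4g3 −0.061 to 0.19 and Eif5b −0.052 to 0.058. Of 412 values recomputed for these genes, 357 kept direction and side of the threshold and 48 changed sign. The ratio of elongation to initiation factors, with alternatives chosen after seeing the data, kept its direction, at −0.19 in log2 without Eef1a1 or without genes that share 3′ words. The cause of these changes was not tested.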

Other observations

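The factors of translation in mitochondria, a list chosen after seeing the data, were scarcer than those of the cytosol. Of 10 listed genes, 2 had a mean of at least 10 cpm, Mtif2 (24.99 ± 4.32 against 26.3 ± 4.84 cpm in Cnr1+/+ and Cnr1-/- libraries; SD, n = 3 each) and Mtif3 (10.1 ± 3.15 against 10.02 ± 2.29 cpm), initiation factors of the mitochondrial ribosome, and neither passed the test. Tufm and Gfm1, the mitochondrial elongation factors, had means of 9.13 and 5.97 cpm. The 79 ribosomal protein genes tested, also chosen after seeing the data, had a median log2 fold change of 0.04, with 55 (69.6%) higher by sign and 3 (3.80%) with a limma nominal p under 0.05, against 68.4% and 6.02% of all genes tested.

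Copies of the factor genes that are annotated as pseudogenes also had reads. Eif3s6-ps1, a copy of Eif3e, had 13.6, 9.39 and 14.9 cpm in the Cnr1+/+ libraries and 12.8, 17.4 and 9.59 cpm in the Cnr1-/- libraries, against 42.3 to 50.5 cpm for Eif3e itself. Eif1-ps1 had 1.69, 3.53 and 2.98 cpm against 8.97, 3.72 and 6.44 cpm, and Eif1-ps2 4.97, 3.14 and 4.39 cpm against 0.631, 3.28 and 0.0261 cpm. Of the values of Eif1-ps1 2 of 6, and of Eif1-ps2 0 of 6, were whole reads, so that both depend on the division of shared reads.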
